A study of Homo sapiens with 6 samples.

Results

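Epidermal transcription regulators are the DNA-binding proteins that switch on the gene programs of the skin's surface epithelium. The group described here holds 9 genes, GRHL1, GRHL2, GRHL3, OVOL1, OVOL2, OVOL3, TP63, KLF4 and ZNF750, taken from the 60664 genes of the count table by matching each Ensembl gene identifier to its symbol. Of these, 7 reached the minimum of 10 counts in total and were tested among 29022 genes, while GRHL2 and OVOL1 lay below it and are given as raw counts. The libraries came from U-2 OS, a polyploid human osteosarcoma line of mesenchymal origin and thus no epidermal cell, which was transfected either with control siRNA (siControl) or with siRNA against SFPQ (siSFPQ), at 30 nM in both groups. SFPQ is an abundant nuclear RNA-binding protein, and the comparison asked which transcripts differ when it is depleted. Each group had 3 biological replicates per the study's methods, the time between transfection and harvest is not given in the sources used here, and both groups are 1 cell line, so that p-values measure the spread between cultures of this line.

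Grainyhead-like factors (GRHL) activate epithelial junction genes and are needed for closure of the skin barrier. GRHL1 acts on desmosomal genes in the outer epidermis, GRHL2 on the junctions of many epithelia, and GRHL3 on barrier formation and on the transglutaminase that crosslinks the cornified layer. Ovo-like zinc finger proteins (OVOL) repress mesenchymal regulators such as ZEB1 and hold epithelial progenitors on their path, with OVOL3 the least studied. The p63 protein, encoded by TP63, is the master regulator of stratified epithelia, ZNF750 is a p63 target that drives terminal differentiation, and KLF4 is a zinc finger factor of the outer layers that is also used in reprogramming.

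Promoter entries were matched for 5 of the 9 regulators, GRHL1, GRHL3, OVOL3, TP63 and KLF4, and not for GRHL2, OVOL1, OVOL2 and ZNF750. The sequences of GRHL3 and OVOL3 are shown because these are the matched genes that were higher in siSFPQ, and GRHL1 is shown as the grainyhead-like relative that did not pass the test. The sequences are from RefSeq (GRCh38.p14), on the plus strand, and span 300 bases around a transcription start. GRHL3 has 2 entries, at chr1:24319107-24319406 and chr1:24322790-24323089, OVOL3 lies at chr19:36110893-36111192 and GRHL1 at chr2:9951443-9951742. Capitals mark matches on either strand to CCNGTT, the core bound by grainyhead factors, and to CACCTG, the E-box bound by ZEB and SNAI factors.
GRHL3, first start: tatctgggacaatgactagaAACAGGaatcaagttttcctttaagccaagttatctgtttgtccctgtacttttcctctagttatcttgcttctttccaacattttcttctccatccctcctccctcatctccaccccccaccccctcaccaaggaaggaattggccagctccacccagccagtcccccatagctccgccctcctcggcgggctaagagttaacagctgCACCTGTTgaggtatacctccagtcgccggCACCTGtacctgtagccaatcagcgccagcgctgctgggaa
GRHL3, second start: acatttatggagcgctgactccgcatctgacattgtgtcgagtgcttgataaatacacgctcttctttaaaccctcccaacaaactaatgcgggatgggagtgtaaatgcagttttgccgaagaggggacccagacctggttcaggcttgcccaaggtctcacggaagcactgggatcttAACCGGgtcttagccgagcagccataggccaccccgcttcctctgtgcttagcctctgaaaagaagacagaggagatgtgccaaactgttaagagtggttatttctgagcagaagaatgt
OVOL3: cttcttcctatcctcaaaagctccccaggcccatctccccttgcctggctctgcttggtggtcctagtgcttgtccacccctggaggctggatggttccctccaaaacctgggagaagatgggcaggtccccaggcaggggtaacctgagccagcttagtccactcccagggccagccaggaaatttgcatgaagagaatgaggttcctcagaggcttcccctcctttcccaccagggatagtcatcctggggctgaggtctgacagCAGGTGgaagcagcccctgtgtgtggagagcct
GRHL1: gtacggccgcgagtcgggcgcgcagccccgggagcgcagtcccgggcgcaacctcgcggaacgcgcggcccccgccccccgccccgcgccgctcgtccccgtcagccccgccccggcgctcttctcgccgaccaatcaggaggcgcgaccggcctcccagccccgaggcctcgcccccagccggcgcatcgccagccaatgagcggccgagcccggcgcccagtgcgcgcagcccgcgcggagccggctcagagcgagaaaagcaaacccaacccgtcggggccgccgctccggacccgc

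CCNGTT was present in 35.7% of all 35116 promoter entries and CACCTG in 20.6%, so neither is rare. With the first transcribed base as position 0, the first GRHL3 promoter held CCNGTT at -19 and, on the other strand, at -230. The same promoter held CACCTG at -21 and at 9, and the match at -21 shares bases with the CCNGTT at -19, so these 2 are not separate. The second GRHL3 promoter held 1 CCNGTT, at -70. The OVOL3 promoter held 1 CACCTG, at 17 within the transcript, and the GRHL1 window held neither. A GC box, GGGCGG, occurs in 45.0% of entries and was found at 3 positions in GRHL1, at 1 in the first GRHL3 promoter and at none in OVOL3, while the GC content was 79.7% for GRHL1, 53% and 50% for GRHL3 and 59.0% for OVOL3 against a median of 58.7% over all entries. Promoter entries for TP63 and KLF4 were also searched: KLF4 held 4 GC boxes, and TP63 held the TATA box letters TATAAA, which 11.5% of entries hold, once at 44 on the other strand. Matches of this kind describe the letters only.

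Total counts were 46142855 to 47119203 per siControl library and 43469321 to 45543610 per siSFPQ library, and 3 counts, taken as the detection floor, correspond to 0.0637 to 0.069 CPM, which covers counting error only. SFPQ itself had 22338, 23139 and 21753 counts in siControl and 3140, 3863 and 3151 in siSFPQ, which left 15.04% of the control level (log2 fold change -2.73, SE 0.05, adjusted p = 6.33e-30, quasi-likelihood test of edgeR, Benjamini-Hochberg adjusted). All adjusted p-values that follow are from this fit over 29022 genes. Among those genes the change was broad, with 22.4% higher and 22.1% lower in siSFPQ at an adjusted p under 0.05, or 26.3% and 19.0% when scaled by library size alone. Of 9 defining markers of keratinocytes, which include the regulator TP63, KRT1, the keratin of the spinous layer, had 0 counts in every library. Of the 8 tested, 4 rose and 2 fell.

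Of the 9 regulators, GRHL3, OVOL3 and ZNF750 rose after SFPQ depletion, each with all siSFPQ libraries above all siControl libraries and a log2 fold change over 1.5. GRHL1, OVOL2, TP63 and KLF4 did not pass the test, and 0 of the 7 tested fell, also at an unadjusted p under 0.05 and with DESeq2 in place of edgeR. The 3 that rose stand against a background of 22.4% of all genes tested that rose, or 5.54% past the fold threshold, and 26.9% of all genes had every siSFPQ library above every siControl library. For falls the background was 22.1%, or 4.77% past a log2 fold change of -1.5, and 25.4% of all genes had every siSFPQ library below every siControl library. Of the 9 genes, 7 had a mean level under 1 CPM, including OVOL3 and ZNF750, and among genes tested at such levels 13.5% rose, 9.95% rose past the fold threshold and 20.0% had groups that did not overlap in that direction. By their mean over both groups GRHL3, at 1.34 CPM, and GRHL1 were above 1 CPM. At such levels 30.1% of genes rose, 1.77% rose past the fold threshold and 32.7% had groups apart in that direction. GRHL3 passed 1 CPM only through the siSFPQ libraries and lay under it in siControl, so the shares under 1 CPM are to be read beside it too. The fold threshold was not always kept: GRHL3 was at 1.46 without siControl replicate 2 and at 1.49 without siSFPQ replicate 1, OVOL3 was at 1.40 without siControl replicate 1, and a prior count of 2 gave 1.48 and 1.49. The median log2 fold change of the 7 tested regulators was 0.75, beside 0.02 over all genes tested and 0.17 over those with a mean under 1 CPM. That median is the value of TP63, which did not pass the test and ranged from 0.26 to 1.42 with a library left out. It thus does not show a shift of the group. GRHL3 and OVOL3 are also members of the epidermis development group that the study drew from these same libraries, so their direction is not independent evidence. RNA from a whole culture cannot tell fewer cells that express a gene from less RNA per cell.

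**Figure D1:**
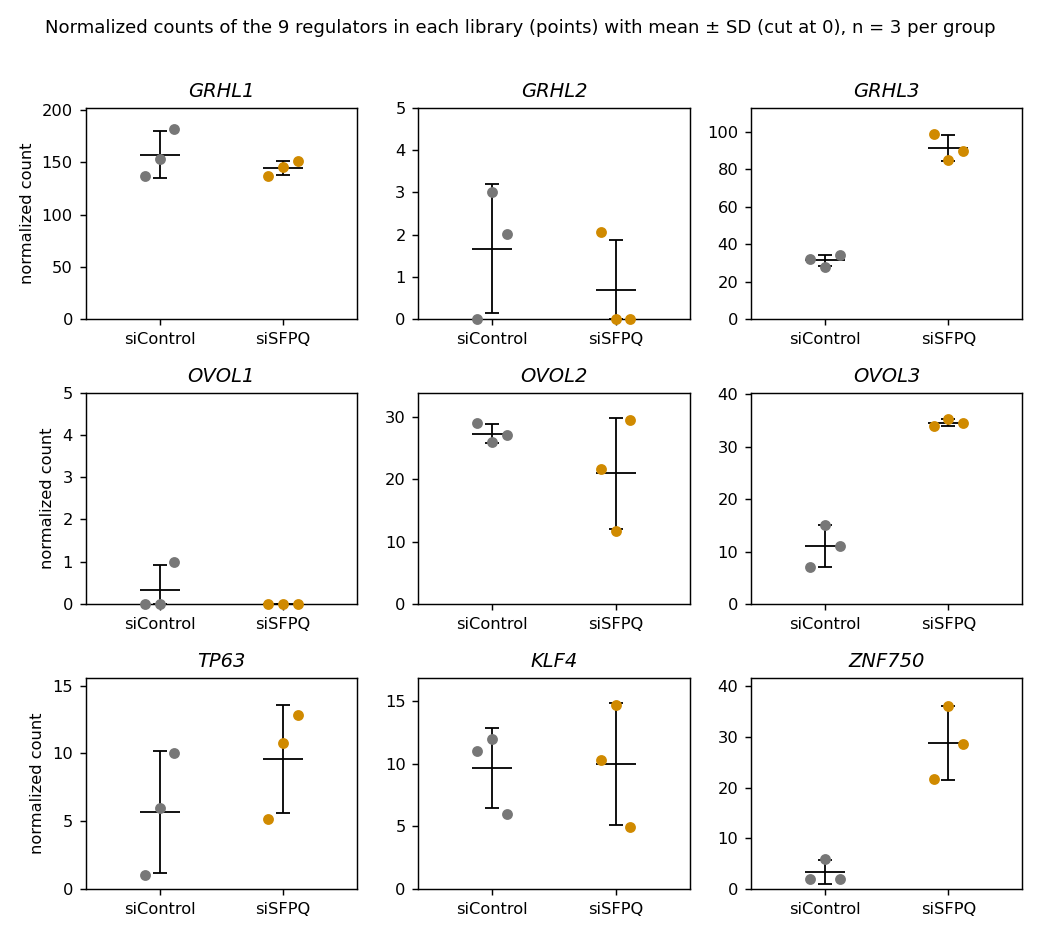
Each panel plots the normalized count of a regulator (vertical axis, counts scaled to a common library size, different scale per panel) in the 3 siControl (grey) and 3 siSFPQ (orange) libraries, with bars at the mean ± SD, the lower end cut at 0. GRHL3, OVOL3 and ZNF750 show siSFPQ points that all lie above the siControl points, and GRHL2 and OVOL1 stay at 3 counts or fewer in every library.

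Among the grainyhead-like genes, GRHL3 rose 2.90-fold, GRHL1 did not pass the test and GRHL2 was at the floor. GRHL3 (ENSG00000158055, chr1:24199558-24364482, plus strand) had 32, 28 and 34 counts in siControl and 96, 87 and 91 in siSFPQ. The lowest siSFPQ library thus held more reads than any control library, and neither group had an outlying library. Normalized counts, scaled to a common library size, were 31.4 ± 3.10 in siControl and 91.3 ± 7.07 in siSFPQ (SD, n = 3 each). The log2 fold change was 1.54 (SE 0.22, 95% interval 1.09 to 1.98), with an interval of 2.13 to 3.96 for the fold and an adjusted p of 4.65e-07 (edgeR).

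GRHL1 (ENSG00000134317, chr2:9951693-10002277, plus strand), the desmosome-linked relative, had 137, 153 and 181 counts in siControl and 133, 149 and 153 in siSFPQ. The groups overlapped, with siControl replicate 3 the highest. The log2 fold change was -0.12 (SE 0.14, 95% interval -0.41 to 0.17, adjusted p = 0.534), an interval that leaves room for a fall of up to 0.41 or a rise of up to 0.17 on the log2 scale. GRHL2 (ENSG00000083307, chromosome 8, plus strand), the grainyhead factor of simple and stratified epithelia, had 0, 3 and 2 counts in siControl and 2, 0 and 0 in siSFPQ. Each of its libraries was at or under the 3-count floor, so it was not detectable at this depth and has no fold change.

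The balance between the pair GRHL3 and GRHL1 shifted in every library. GRHL3 supplied 18.9%, 15.5% and 15.8% of the summed GRHL3 and GRHL1 counts in siControl replicates 1, 2 and 3, and 41.9%, 36.9% and 37.3% in siSFPQ replicates 1, 2 and 3. The exact 95% binomial intervals, which cover counting error only and not the spread between cultures, reached at most 25.7% in siControl and started at 30.7% or higher in siSFPQ. Per kilobase of exon, the GRHL3 to GRHL1 ratio was 0.376 ± 0.052 in siControl and 1.18 ± 0.143 in siSFPQ (SD, n = 3). By this measure GRHL3 went from the lower to the higher of the pair, while its counts stayed below those of GRHL1 in every library. The measure divides by the union of annotated exons, and which transcripts of each gene were expressed was not tested. The log2 of the ratio differed by 1.65, with an exact two-sided permutation p of 0.1, the smallest that 3 against 3 libraries can give. This ratio and that of the OVOL pair were the 2 tested, and adjustment leaves both p-values at 0.1. Both ratios restate the rises of GRHL3 and OVOL3 beside a relative that did not pass, so they are no separate evidence.

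OVOL3 rose 3.12-fold from a low level, and OVOL2 did not pass the test. OVOL3 (ENSG00000105261, chr19:36111143-36113711, plus strand) had 7, 15 and 11 counts in siControl and 33, 36 and 35 in siSFPQ. The siSFPQ libraries lay close together while siControl replicate 1 held fewer than its fellows. Normalized counts were 11.0 ± 3.99 and 34.6 ± 0.599 (SD, n = 3), and the log2 fold change was 1.64 (SE 0.38, 95% interval 0.87 to 2.41, adjusted p = 5.24e-04, edgeR).

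OVOL2 (ENSG00000125850, chr20:17956979-18059188, minus strand), the ovo-like factor that holds mesenchymal genes off in epithelia, had 29, 26 and 27 counts in siControl and 21, 12 and 30 in siSFPQ. The siSFPQ libraries scattered on both sides of the control values, and the log2 fold change was -0.38 (SE 0.36, 95% interval -1.12 to 0.35, adjusted p = 0.428). OVOL1 (ENSG00000172818, chr11:65787063-65797214, plus strand), which acts in epidermal progenitors leaving the cell cycle, had 1 count in siControl replicate 3 and 0 in the other libraries. It was not detectable at this depth and has no fold change.

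The share of OVOL3 in the summed OVOL3 and OVOL2 counts was 19.4%, 36.6% and 28.9% in siControl and 61.1%, 75.0% and 53.8% in siSFPQ. The lowest siSFPQ share lay above the highest siControl share, but their exact 95% intervals overlapped, from 41.0% to 66.3% against 22.1% to 53.1%. The per-kilobase ratio was 1.19 ± 0.49 and 5.58 ± 2.81 (SD, n = 3), and the log2 ratio differed by 2.20 with the same exact permutation p of 0.1.

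**Figure D2:**
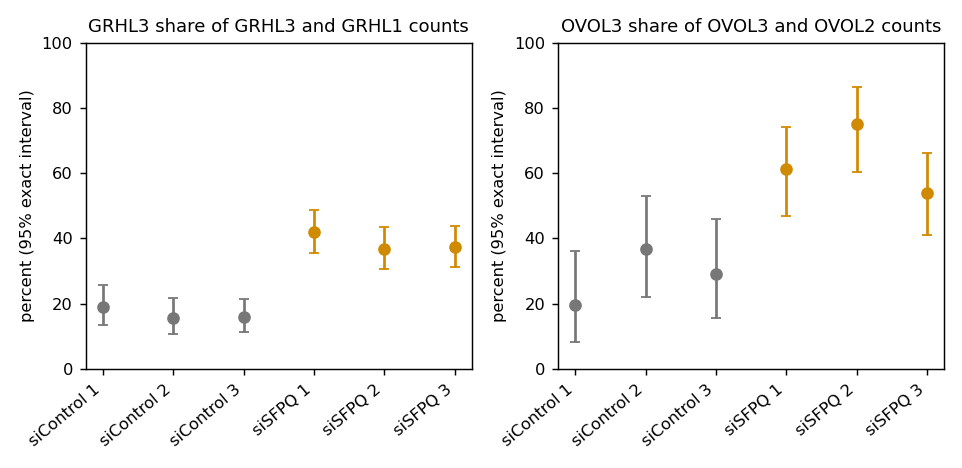
The left panel plots GRHL3 as a percent of the summed GRHL3 and GRHL1 counts and the right panel OVOL3 as a percent of the summed OVOL3 and OVOL2 counts, for each of the 6 libraries (grey siControl, orange siSFPQ), with exact 95% binomial intervals as bars. In both pairs every siSFPQ point lies above every siControl point, and only in the OVOL pair do intervals of the groups overlap.

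ZNF750 had the largest log2 fold change of the 7 regulators tested. ZNF750 (ENSG00000141579, chr17:82829434-82840022, minus strand), the differentiation factor downstream of p63, had 2, 6 and 2 counts in siControl and 21, 37 and 29 in siSFPQ. Of its control libraries, 2 were under the 3-count floor, so the fold rests on few control reads. Normalized counts were 3.34 ± 2.31 and 28.8 ± 7.28 (SD, n = 3), and the log2 fold change was 3.07 (SE 0.53, 95% interval 1.99 to 4.14, adjusted p = 9.69e-06, edgeR), which is 8.37-fold with an interval of 3.99 to 17.6. Without siControl replicate 2, the control library with the most ZNF750 reads, the log2 fold change was 3.77.

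TP63 (ENSG00000073282, chr3:189631389-189897276, plus strand), the regulator upstream of ZNF750 in skin, had 1, 6 and 10 counts in siControl and 5, 11 and 13 in siSFPQ. The groups overlapped and the log2 fold change was 0.75 (SE 0.69, 95% interval -0.66 to 2.15, adjusted p = 0.417), so a change of either sign was within its error. KLF4 (ENSG00000136826, chr9:107484852-107490482, minus strand) had 11, 12 and 6 counts in siControl and 10, 15 and 5 in siSFPQ. Its log2 fold change was 0.04 (SE 0.57, 95% interval -1.13 to 1.21, adjusted p = 0.964), and the value turned to -0.20 without siControl replicate 3 and to -0.36 without siSFPQ replicate 2.

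**Figure D3:**
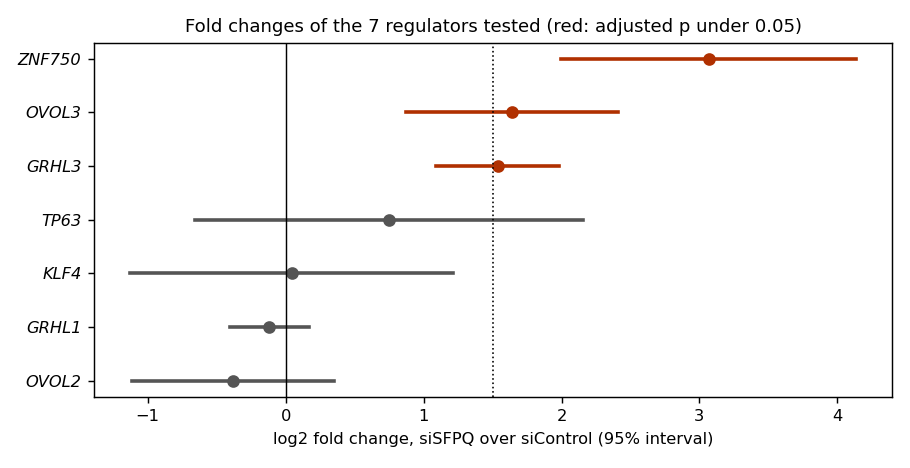
The horizontal axis is the log2 fold change of siSFPQ over siControl and each row is a tested regulator, with a point for the estimate and a line for its 95% interval, the dotted line marking 1.5. GRHL3, OVOL3 and ZNF750 (red) have intervals above 0, and the intervals of OVOL2, GRHL1, KLF4 and TP63 (dark grey) cross 0.

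Per kilobase of exon, levels were low in both groups and their order changed. In siControl the RPKM, counts per kilobase of exon scaled to library size, were 0.432 ± 0.0616 for GRHL1, 0.319 ± 0.116 for OVOL3, 0.272 ± 0.0154 for OVOL2, 0.161 ± 0.0159 for GRHL3, 0.0578 ± 0.0192 for KLF4, 0.0231 ± 0.016 for ZNF750 and 0.0166 ± 0.0132 for TP63 (SD, n = 3). Neighbours in this order overlapped between libraries, except that OVOL2 lay above GRHL3 and GRHL3 above KLF4 in all libraries. In siSFPQ the order was OVOL3 at 1.00 ± 0.0173, GRHL3 at 0.468 ± 0.0362, GRHL1 at 0.398 ± 0.0191, OVOL2 at 0.208 ± 0.0887, ZNF750 at 0.199 ± 0.0504, KLF4 at 0.0595 ± 0.0291 and TP63 at 0.028 ± 0.0116 RPKM. Here OVOL2 and ZNF750 overlapped, as did KLF4 and TP63, while the other neighbours were apart in all libraries. Among the 16477 protein-coding genes tested, ranked by RPKM, OVOL3 moved from the 24.0th to the 34.3rd percentile, GRHL3 from the 18.6th to the 27.1st and ZNF750 from the 5.87th to the 20.2nd, so that all 3 stayed in the lower part of the ranking.

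The genes beside the 3 regulators that rose moved in different directions. STPG1, on the opposite strand, overlaps the GRHL3 span but shares 0 exon bases with it, and its normalized counts rose from 525 ± 32.2 to 892 ± 21.6 (log2 0.76, SE 0.07, adjusted p = 1.23e-10). IFNLR1, an interferon lambda receptor subunit 11598 bases from the lower end of the annotated GRHL3 span, rose from 248 ± 9.82 to 540 ± 22.2 (log2 1.12, SE 0.09, adjusted p = 3.00e-12). The promoter entries of GRHL3 shown above start at 24319107 and 24322790, inside this span. IFNLR1 ends at 24187959 and lies farther from those starts than from the span. NIPAL3, 51319 bases away on the same strand, rose from 956 ± 49.0 to 1929 ± 139 (log2 1.01, SE 0.06, adjusted p = 5.44e-16). GRHL3 thus lies among genes that also rose, by smaller log2 amounts, and whether their reads or their transcription bear on GRHL3 was not tested.

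For OVOL3, the overlapping gene POLR2I, an RNA polymerase II subunit on the opposite strand, shares 3 of the 755 exon bases of OVOL3 (0.397%). It fell from 92.8 ± 10.1 to 65.0 ± 13.4 normalized counts (log2 -0.51, SE 0.20, adjusted p = 0.0325). On the same strand, WDR62, 6034 bases away, rose by a log2 of 0.16 (SE 0.04, adjusted p = 0.00191), and TBCB, 577 bases away, had a log2 of 0.05 (SE 0.04, adjusted p = 0.379). The tested neighbours of OVOL3 lay between a log2 of -0.51 and 0.16, and OVOL3 was at 1.64. Whether their reads or their transcription bear on OVOL3 was not tested.

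ZNF750 lies inside TBCD, a tubulin folding cofactor on the opposite strand, which shares 222 of the 3158 exon bases of ZNF750 (7.03%). TBCD had 6535 ± 53.4 normalized counts in siControl and 4423 ± 112 in siSFPQ and fell (log2 -0.56, SE 0.04, adjusted p = 2.62e-14), the opposite direction to ZNF750. The nearest gene on the higher-coordinate side, the lncRNA ENSG00000262663 at 78259 bases, rose from 8.01 ± 5.01 to 20.0 ± 4.62 (log2 1.31, SE 0.50, adjusted p = 0.0339). This lncRNA also lies inside the TBCD span, on the strand of TBCD. Whether TBCD reads were counted on it or on ZNF750 was not tested. The strand setting of the counting is not given in the sources used here, so reads of overlapping genes on opposite strands may not be told apart.

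The regulators that did not pass, or were not tested, also had neighbours that changed. OVOL2 overlaps SNX5 on the same strand, with 59 of 2203 exon bases shared (2.68%), and SNX5 rose from 5535 ± 45.2 to 7279 ± 348 normalized counts (log2 0.40, SE 0.04, adjusted p = 3.03e-10). The mitochondrial exonuclease gene MGME1 (log2 0.22, SE 0.04, adjusted p = 4.31e-05) and the small nucleolar RNA SNORD17 (log2 1.75, SE 0.12, adjusted p = 2.58e-14), which also lie within the OVOL2 span, rose too. P3H2, a collagen prolyl hydroxylase gene beside TP63, fell from 1987 ± 54.0 to 247 ± 23.1 (log2 -3.01, SE 0.07, adjusted p = 8.04e-27), and TPRG1 on the other side had a log2 of -0.37 (SE 0.43, adjusted p = 0.53). Beside OVOL1, AP5B1 rose (log2 0.55, SE 0.05, adjusted p = 5.87e-11) and CFL1, the actin-severing cofilin, fell (log2 -0.23, SE 0.04, adjusted p = 2.50e-06). Beside GRHL2, the calcium sensor NCALD fell (log2 -2.16, SE 0.42, adjusted p = 5.53e-05).

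Further lists set the regulators beside their relatives and their known targets, each list read against the 22.4% of all genes that rose and the 22.1% that fell. In the fit on protein-coding genes alone these shares were higher, 30.5% that rose and 30.7% that fell, and the lists are to be read against them too. Of 22 relatives from the gene families of these regulators, 19 were tested, 9 rose and 6 fell, with a median log2 fold change of 0.10. KLF12, a repressor of the KLF family, fell from 2429 ± 71.4 to 427 ± 20.6 normalized counts (log2 -2.51, SE 0.06, adjusted p = 1.10e-26). KLF13 fell by a log2 of 1.11 (adjusted p = 2.96e-21), from 7636 ± 363 to 3529 ± 129, and TFCP2, the CP2 factor related to grainyhead, fell from 2179 ± 26.6 to 1399 ± 70.1 (log2 -0.64, adjusted p = 1.39e-12). UBP1, with the highest mean count of the list, had a log2 of -0.01 (SE 0.04, adjusted p = 0.865).

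Of 30 other epidermal and epithelial transcription factors, 25 were tested, 10 rose and 5 fell, with a median of 0.22, or 0.12 when POU2F3 and ELF3, at the floor in siControl, are set to their bounds. MSX2, a homeobox factor of skin appendages and bone, rose from 325 ± 6.85 to 781 ± 88.4 (log2 1.26, SE 0.09, adjusted p = 3.93e-14). TRPS1, a GATA-type repressor, fell from 3530 ± 154 to 1271 ± 69.3 (log2 -1.47, SE 0.05, adjusted p = 1.55e-22). RUNX1 (log2 -0.82, SE 0.04, adjusted p = 6.01e-18) and SOX9 (log2 -0.60, SE 0.04, adjusted p = 1.54e-14), both factors of hair follicle stem cells that also act in cartilage or blood, fell, and SOX9 had the highest mean count of the list. Past a log2 fold change of 1.5 in either direction, 1 rose and 0 fell, beside 5.54% and 4.77% of all genes tested. The 1 was DLX3, named after its values were seen, from 25.7 ± 11.6 to 110 ± 12.8 (log2 2.10, SE 0.24, adjusted p = 7.63e-09). Factors of this class thus moved in both directions.

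Of 29 epithelial adhesion and polarity genes, many of them known grainyhead targets, all were tested, 14 rose and 3 fell, with a median of 0.55. Of the 14 that rose, 9 did so past a log2 fold change of 1.5, beside 5.54% of all genes tested and 9.95% of those under 1 CPM. Of these 9, PRSS8, PKP1, RAB25, ST14, LAD1 and SPINT2, named after their values were seen, had a mean under 1 CPM. PKP1 had 0, 0 and 2 counts in siControl and 5, 8 and 5 in siSFPQ, and the groups of SPINT2 overlapped. JUP, the junction protein plakoglobin, rose from 1412 ± 54.3 to 4119 ± 134 (log2 1.54, SE 0.05, adjusted p = 4.77e-24), and CLDN4, a tight junction claudin, from 405 ± 33.2 to 1363 ± 79.2 (log2 1.75, SE 0.07, adjusted p = 5.55e-20). TJP3, a tight junction scaffold, rose from 121 ± 16.9 to 345 ± 20.1 (log2 1.52, SE 0.12, adjusted p = 1.59e-12). ARHGEF19, a guanine nucleotide exchange factor gene that GRHL3 is known to activate, rose from 648 ± 26.9 to 1155 ± 72.3 (log2 0.83, SE 0.07, adjusted p = 2.36e-12). DSG2, the desmoglein with the highest mean count of the list, rose by a log2 of 0.29 (SE 0.04, adjusted p = 4.88e-07). The 3 that fell, named after their values were seen, were OCLN, CLDN1 and TMEM54. OCLN, tight junction occludin, fell from 1629 ± 107 to 1160 ± 23.6 (log2 -0.49, SE 0.06, adjusted p = 7.82e-09). CLDN1, a tight junction claudin, fell from 668 ± 35.3 to 454 ± 30.3 (log2 -0.56, SE 0.08, adjusted p = 5.72e-07). TMEM54 had a log2 of -0.30 (SE 0.08, adjusted p = 0.00133).

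Of 14 mesenchymal transition genes, a class that OVOL factors repress in epithelia, 12 were tested, 9 fell and 1 rose, with a median of -0.51. ZEB1 fell from 3706 ± 76.7 to 2466 ± 116 (log2 -0.59, SE 0.04, adjusted p = 2.55e-13), SNAI2 from 1408 ± 47.5 to 900 ± 49.1 (log2 -0.65, SE 0.06, adjusted p = 6.16e-11) and CDH2, the mesenchymal N-cadherin, from 7538 ± 447 to 3570 ± 103 (log2 -1.08, SE 0.04, adjusted p = 1.25e-20). FN1, fibronectin, had the highest mean count and fell from 85023 ± 7983 to 58725 ± 2701 (log2 -0.53, SE 0.04, adjusted p = 4.48e-12). None of the 9 that fell reached a log2 fold change of -1.5. The 1 that rose was VIM, the mesenchymal intermediate filament vimentin, named after its values were seen, from 42286 ± 42.0 to 52824 ± 1003 (log2 0.32, SE 0.03, adjusted p = 7.10e-10).

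Genes under p63 split in both directions. All 25 were tested, 15 rose and 7 fell, with a median of 0.37, and ZNF750 is also a member of this list. LAMB3, a laminin of the basement membrane, rose from 7351 ± 392 to 13553 ± 715 (log2 0.88, SE 0.04, adjusted p = 1.87e-18), and ITGA6, its integrin receptor subunit, from 6482 ± 274 to 11054 ± 83.0 (log2 0.77, SE 0.04, adjusted p = 5.56e-18). KRT14, the basal keratin and a hallmark p63 target, fell from 690 ± 24.3 to 195 ± 14.1 (log2 -1.82, SE 0.09, adjusted p = 9.81e-18). FRAS1, a basement membrane protein, fell from 4961 ± 413 to 2440 ± 204 (log2 -1.02, SE 0.05, adjusted p = 2.59e-17), and DST, with the highest mean count, rose by a log2 of 0.36 (SE 0.05, adjusted p = 1.02e-07).

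Terminal differentiation genes are the endpoint of the ZNF750, KLF4 and GRHL3 programs. Of 46 such genes, 30 were tested, 11 rose and 6 fell, with a median of 0.50, and 15 had 3 counts or fewer in every library, including KRT1, SPRR1B, SPRR1A, CALML5, LCE1A and LCE2A at 0 in all. FLG2, a filaggrin relative of the cornified layer, rose from 7.01 ± 4.58 to 127 ± 11.9 (log2 4.16, SE 0.30, adjusted p = 7.45e-14). FLG, filaggrin, rose from 745 ± 54.1 to 1278 ± 29.5 (log2 0.78, SE 0.06, adjusted p = 3.80e-12), and ALOXE3, a lipoxygenase of barrier lipids, from 61.1 ± 3.52 to 150 ± 8.35 (log2 1.30, SE 0.16, adjusted p = 4.03e-08). KRT10, the suprabasal keratin, fell from 1184 ± 128 to 713 ± 64.7 (log2 -0.73, SE 0.08, adjusted p = 5.83e-10). TGM1, the transglutaminase of the cornified layer that GRHL3 is known to act on, fell from 501 ± 47.2 to 315 ± 15.5 (log2 -0.67, SE 0.09, adjusted p = 3.05e-07), the opposite direction to GRHL3, and was named after its values were seen. FLG2 also belongs to the study's epidermis development group, which was drawn from these libraries.

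**Figure D4:**
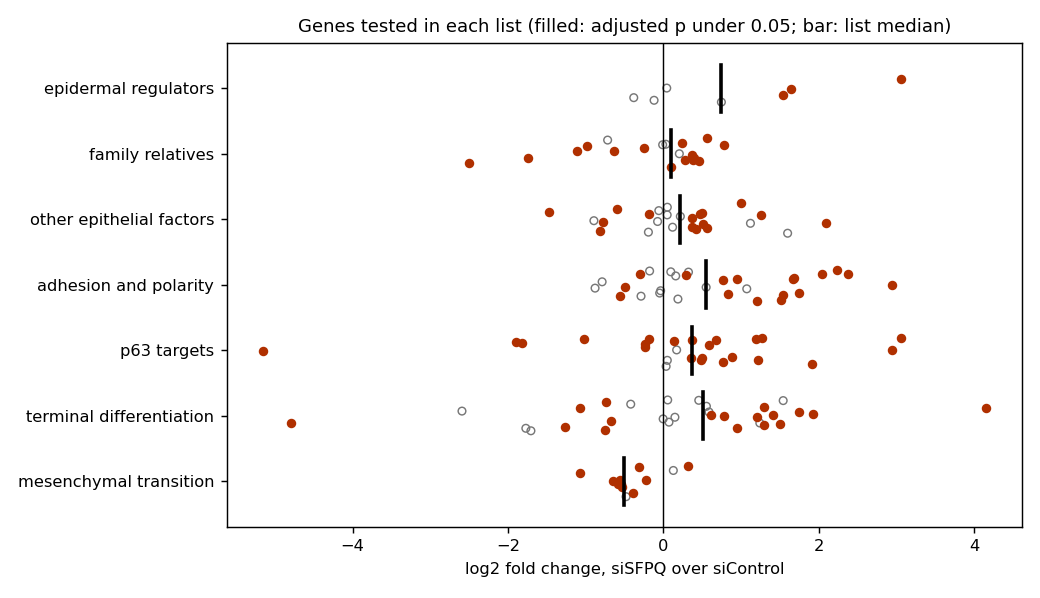
Each point is a tested gene placed by its log2 fold change of siSFPQ over siControl (horizontal axis) in its list (rows), filled where the adjusted p was under 0.05, with a black bar at the list median. Medians lie at 0.75 for the epidermal regulators, 0.55 for adhesion and polarity and -0.51 for mesenchymal transition. The 0.75 is the value of TP63, which did not pass the test. The far left points, IGFBP3 and CRNN, had 0 counts in every siSFPQ library, so their position depends on the prior count.

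Markers of cell types were measured beside these lists. Simple epithelium markers, 8 of 8 tested, gave 4 that rose and 0 that fell, and their summed level was 74.1 to 77.4 RPKM in siControl and 170 to 185 in siSFPQ. KRT8 and KRT18 carried most of that sum, and the other 6 markers summed to 3.97 to 4.74 RPKM in siControl and 8.37 to 8.84 in siSFPQ. KRT8 rose from 9138 ± 254 to 19672 ± 1086 and KRT18 from 5904 ± 109 to 15131 ± 575, with log2 fold changes of 1.11 and 1.36, and CDH1, E-cadherin, rose from 50.4 ± 18.4 to 85.7 ± 12.5 (log2 0.76, SE 0.23, adjusted p = 0.00719). EPCAM, ESRP1 and CLDN7, named after their values were seen, did not pass, with log2 fold changes of -0.18, -0.79 and -0.88. The 9 keratinocyte markers summed to 23.0 to 25.5 RPKM in siControl and 17.9 to 19.6 in siSFPQ, with a median log2 fold change of 0.49 over the 8 tested. The regulator TP63 is also among these markers. KRT10 and KRT14, which fell, together made up 16.9 to 19.6 RPKM in siControl and 8.65 to 9.70 in siSFPQ. The other 7 summed to 5.89 to 6.09 RPKM in siControl and 9.24 to 9.98 in siSFPQ. KRT15 rose (log2 2.36, SE 0.12, adjusted p = 3.06e-17), as did ITGB4 (log2 0.49, SE 0.06, adjusted p = 8.37e-09). Osteoblast lineage markers, with 5 of 10 tested that fell and 1 that rose, summed to 805 to 848 RPKM in siControl and 695 to 701 in siSFPQ, with IBSP, bone sialoprotein, at 3 counts or fewer in every library. Of 7 blood cell markers, 6 of leukocytes and HBB of red cells, 3 were tested, ITGAM rose and PTPRC fell, and the 6 leukocyte markers summed to 0.0985 to 0.156 RPKM in siControl and 0.223 to 0.268 in siSFPQ, with LYZ and CD3E at 3 counts or fewer throughout. The part of these levels in the results above was not tested.

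The genes whose profile over the 6 libraries came closest to that of each regulator were sought among 15641 genes with a mean of at least 1 CPM, by the root mean square difference of centred log2 CPM. For GRHL3 these were GNG11, a G protein gamma subunit, at 0.052 and APOL6, an interferon-inducible apolipoprotein L gene, at 0.0585, with log2 fold changes of 1.49 and 1.53. For OVOL3 they were PHOSPHO1, a phosphatase of bone mineralization, at 0.0797 (log2 1.54) and LHFPL5, a protein of the hair cell transduction channel, at 0.0993 (log2 1.36). For ZNF750 the nearest were the lncRNA LINC01151 at 0.227 (log2 2.55) and GCNT4, a mucin-type glycosyltransferase gene, at 0.276 (log2 2.21). No gene searched matched ZNF750 as closely as the nearest genes matched GRHL3 or OVOL3. With 2, 6 and 2 counts in siControl, ZNF750 lay below the level of the genes searched, and the part of counting error in its distance was not tested. With 6 libraries in 2 groups, a close profile is largely a like difference between the groups.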

How the data were processed

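RNA-seq of U-2 OS cells was analysed in 3 siControl and 3 siSFPQ libraries, grouped by the sample titles. Per the labels and the study's methods, the authors made poly(A) libraries, checked reads with FastQC, aligned and counted the paired reads per Ensembl gene of GRCh38 with STAR 2.7.9a, and deposited raw counts. The labels name a TruSeq RNA kit and the methods a stranded mRNA kit, and the strand setting of the counting is not given in the sources used here. The submitters' processing notes also name DESeq2. All 6 count columns carry a sample's own name, and 0 were unused.

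Names, spans and exon lengths came from GENCODE 44 and matched 60463 of 60664 identifiers (99.7%). The study counted on an Ensembl annotation that may be another release. Exon lengths, shared exon bases and distances may thus differ from the gene models that were counted. The quasi-likelihood test of edgeR 4.0.16 (R 4.3.3, TMM scaling, prior count 0.125, no covariates) was run on genes with at least 10 counts in total, with Benjamini-Hochberg adjustment over all of them, and rose or fell means an adjusted p under 0.05. Normalized counts are counts divided by effective library size and scaled to its geometric mean, and RPKM was computed here over the union of exons. Bounds used 3 counts per library as floor. Libraries of a group were checked for repeats and differed by more than sampling noise. Scripts were tested on simulated data. The members, lists and tests were chosen with earlier results of these data known. Named genes were the regulators, SFPQ, neighbours with at least 10 counts, the 4 smallest p-values with groups apart and the highest mean in each list, and the 2 genes of nearest profile; some genes that this rule gives are not reported here. Alternatives were filterByExpr or no count filter, RLE size factors or library size alone, DESeq2 1.42.0, a prior count of 2, protein-coding genes only, a block for the replicate number, and each library left out in turn.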

Additional observations from a re-analysis of the deposited data

How the results depend on the processing

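All 14 alternatives, 6 of which leave out a library, left 3 regulators that rose and 0 that fell. Of 111 fold changes of the tested regulators and SFPQ under these alternatives, 109 kept their direction and their side of an adjusted p of 0.05, and all 168 counts of risen or fallen genes in the 6 pathway lists stayed within 1.5 times the reported count. The number past a log2 fold change of 1.5 was 3 under 10 alternatives, 2 under 3 and 1 under 1. With a prior count of 2 the number past a log2 fold change of 1.5 dropped from 3 to 1, with ZNF750 at 2.53, GRHL3 at 1.48 and OVOL3 at 1.49, as a larger prior shrinks folds of low counts. With a library left out that number was 2 to 3: GRHL3 was at 1.46 without siControl replicate 2 and at 1.49 without siSFPQ replicate 1, and OVOL3 at 1.40 without siControl replicate 1. ZNF750 ranged from 2.53 to 3.77, the highest without siControl replicate 2. With a library left out KLF4 ranged from -0.36 to 0.38 and reversed without siControl replicate 3 (-0.20) and without siSFPQ replicate 2 (-0.36). TP63 ranged from 0.26 to 1.42 over 13 alternatives, as filterByExpr dropped it. Adjusted p-values ranged from 8.15e-10 to 4.28e-05 for GRHL3, 1.71e-04 to 0.00453 for OVOL3 and 6.33e-08 to 6.81e-04 for ZNF750.

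The replicate numbers did not pair the libraries by the rule used (correlations of same-number deviations 0.00191 to 0.0153, all under 0.1), although every library correlated best with its own number, 3 of 3 in each group. With the replicate number as a block, GRHL3 was at 1.54, OVOL3 at 1.66 and ZNF750 at 3.11, 3 regulators rose, 0 fell, and no other call of the regulators changed. Library size alone moved the median of all genes from 0.02 to 0.08, the share that rose from 22.4% to 26.3% and the share that fell from 22.1% to 19.0%. Depth limits what can be said of GRHL2 and OVOL1, at 3 counts or fewer per library, and leaves wide intervals for TP63 and KLF4.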
